A study of Homo sapiens with 4 samples.

Results

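The genes described here are 55 genes of mitosis: the cyclins and kinases that drive it, the kinesins and other proteins of the spindle, and the factors of anaphase and cytokinesis. They were chosen by name, with earlier results of these data known, and each was read from the 1 probe set that the platform annotation gives to that gene alone (the brightest, where there were several). All 55 were among the 18377 genes named on the arrays, and all 55 passed the filter on dim genes, which left 11026 genes to test. OPM2 cells, an established human multiple myeloma line grown in medium with fetal bovine serum, were given the solvent DMSO (2 control arrays) or 123 nM VS-5584, also called SB2343 (2 treated arrays), and both groups were harvested after 24 h. The design text of the series gives the dose as 125 nM and places it below the IC50 at 48 h. VS-5584 inhibits mTOR and the class I PI3 kinases, enzymes that couple growth factors and nutrients to cell growth and division. The titles name biological replicates but not what was repeated (culture, passage or day), so p-values measure only the spread between these samples, and the data describe 1 cell line at 1 dose and 1 time.

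Cells enter mitosis when CDK1, bound to cyclin A or B, is switched on by CDC25 phosphatases. Aurora and Polo kinases then build the spindle with the help of kinesins and microtubule-binding proteins, and the anaphase-promoting complex ends mitosis by marking cyclin B and securin for destruction. The mRNAs of these proteins are made mainly in G2 and mitosis. Many of their promoters carry CCAAT boxes, bound by the factor NF-Y, and a CHR element (TTTGAA), bound by the MuvB complex. MuvB represses these genes with E2F4 and the p130 or p107 proteins in resting cells, as the DREAM complex, and activates them with B-MYB (the product of MYBL2) and FOXM1 in dividing cells.

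The RefSeq promoter sequences of 6 genes are printed because 5 of them hold both motifs and 1, CKAP2, holds neither. Each is the stretch of 150 bases before the annotated gene start, 5′ to 3′ on the strand of the gene, in build GRCh38.p14. Capitals mark CCAAT or its reverse complement ATTGG, and TTTGAA or its reverse complement TTCAAA.
CDK1, chr10:60778328-60778477, plus strand: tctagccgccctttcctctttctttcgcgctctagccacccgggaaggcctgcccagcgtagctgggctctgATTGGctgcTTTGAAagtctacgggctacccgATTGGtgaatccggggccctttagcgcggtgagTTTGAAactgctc
CCNB2, chr15:59104996-59105145, plus strand: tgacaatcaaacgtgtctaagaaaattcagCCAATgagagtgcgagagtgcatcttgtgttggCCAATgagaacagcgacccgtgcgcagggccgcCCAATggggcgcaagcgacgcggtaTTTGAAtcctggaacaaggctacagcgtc
PLK1, chr16:23678739-23678888, plus strand: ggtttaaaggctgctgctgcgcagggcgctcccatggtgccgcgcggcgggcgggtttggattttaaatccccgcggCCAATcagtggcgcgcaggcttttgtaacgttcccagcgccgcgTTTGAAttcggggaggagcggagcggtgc
KIF11, chr10:92592980-92593129, plus strand: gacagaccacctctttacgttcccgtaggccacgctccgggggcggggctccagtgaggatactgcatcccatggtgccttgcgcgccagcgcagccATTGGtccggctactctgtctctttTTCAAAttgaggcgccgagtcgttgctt
GTSE1, chr22:46296720-46296869, plus strand: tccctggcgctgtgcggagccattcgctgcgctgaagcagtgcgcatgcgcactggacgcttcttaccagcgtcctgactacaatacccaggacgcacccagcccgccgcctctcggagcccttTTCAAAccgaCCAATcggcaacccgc
CKAP2, chr13:52455838-52455987, plus strand: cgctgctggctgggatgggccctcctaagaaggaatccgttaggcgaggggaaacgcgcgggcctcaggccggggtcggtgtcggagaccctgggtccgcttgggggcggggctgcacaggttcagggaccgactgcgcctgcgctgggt

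In CCNB2 the last 3 CCAAT boxes begin 33 bases apart, and a TTTGAA follows at position -29, counted so that -1 is the last base before the start. CDK1 carries 2 CCAAT boxes 32 bases apart, with TTTGAA at -69 and -13. CCNB1, which is not printed, has 2 CCAAT boxes 32 bases apart and no TTTGAA in this window. In GTSE1 the order is the other way round, with a TTTGAA match at -26 and a CCAAT match at -16. CKAP2 was chosen for printing after its values were seen. KIF2C, MELK and MYBL2, which were lower with drug, also hold neither motif and are not printed. RefSeq promoter windows, from 250 bases before to 50 after a start, were found for 46 of the 55 genes, as 59 windows, some of which overlap because 8 genes have several starts. Of the 46 genes, 40 had a CCAAT, 33 had a TTTGAA and 30 had both in 1 window, searched on both strands (the motifs can overlap by 1 base). By window, 76.3% of the mitotic windows held CCAAT, against 34.6% of all 35116 windows of this length in the table. TTTGAA was in 61.0% of the mitotic windows against 15.2% of all, and both motifs were in 54.2% against 5.90%. More than 1 CCAAT match was in 40.7% of the mitotic windows and 10.8% of all. The CCAAT matches had a median position of -73 and the TTTGAA matches one of -28.

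**Figure D1:**
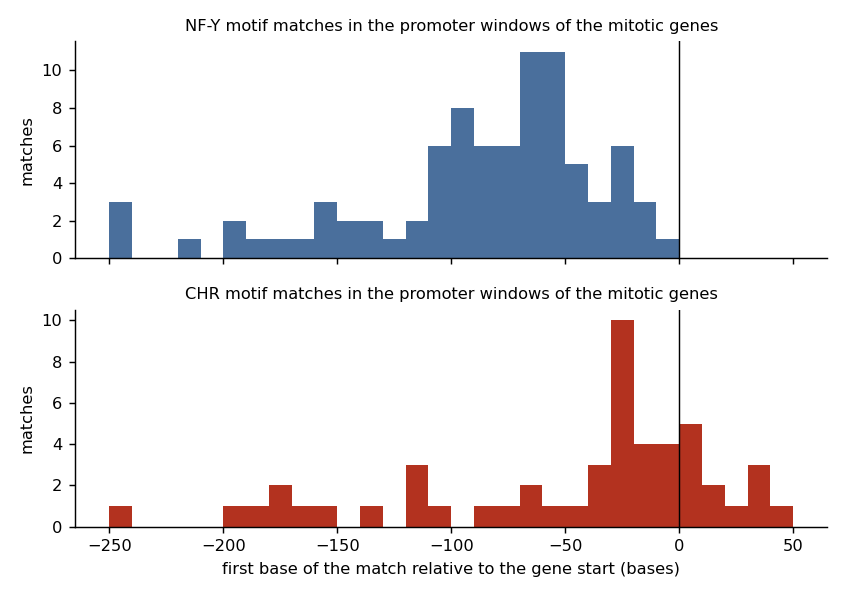
Position of the NF-Y motif (CCAAT, top) and the CHR motif (TTTGAA, bottom) in the 59 promoter windows of 46 mitotic genes; the horizontal axis is the first base of each match relative to the gene start in bases, and the bars count matches per 10 bases. The 85 CCAAT matches lie mostly upstream of the 51 TTTGAA matches, with medians of -73 and -28.

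These motif matches are a description of sequence, and each gene's response was compared with them only side by side. The 33 genes with a TTTGAA in any window had a median log2 difference (VS-5584 minus control) of -0.60, and the 13 without one had a median of -0.52. The 40 genes with a CCAAT had a median of -0.57, and the 6 without one had a median of -0.81. Among those 6 were both KIF2C, which was lower by 0.95 with drug, and CKAP2, which was higher by 0.05. The 4 genes with neither motif were KIF2C, MELK (-0.89), MYBL2 (-0.73) and CKAP2, with a median of -0.81. For the 31 genes with both motifs, in any window, the median was -0.59.

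Of the 55 mitotic genes, 53 were lower on both VS-5584 arrays than on both control arrays, whereas 29.2% of all tested genes were. On average 54 of 55 were lower, against 62.7% of all tested genes, and CKAP2 was the exception. The median log2 difference over the 55 genes was -0.59, a 1.51-fold decrease, beside a median of -0.06 over all 11026 genes. The differences ran from -0.99 for KIF15 to 0.05 for CKAP2, with quartiles of -0.72 and -0.47. A decrease of more than 1.5-fold was seen in 28 of the 55 genes and in 1.65% of all tested genes. Among all tested genes ranked from the lowest difference, 18 mitotic genes were within the first 100 and 42 within the first 500. In RNA from whole cultures, fewer cells in mitosis and less of each mRNA per cell cannot be told apart.

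No mitotic gene passed the threshold in the test across all genes (limma, Benjamini-Hochberg adjusted p under 0.05), and neither did any other gene: 0 of 11026, or 0%. The smallest adjusted p among the 55 was 0.243, for CDCA2 and CDK1. At an unadjusted p under 0.05, 49 of the 55 were lower and 0 higher in limma's test, against 8.93% of all tested genes lower and 1.49% higher, and an ordinary two-sample test gave 5 of 55 lower, against 2.22% of all tested genes. The count past the adjusted threshold changed with the filter and the model. It was 9 of 54 with 60% of dim genes left out (0.789% of all genes passed) and 8 with an intensity trend (0.726%). With the replicate number as a block it was 40 (3.92%), but 2 pairs cannot show that the numbers pair the samples. Leaving out an array leaves 1 in its group, which is then assumed to vary like the 2 arrays of the other group. The mitotic genes varied more between treated than between control arrays, so counts from such fits are not compared here.

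Treated replicate 2 showed the larger decrease. Relative to the control mean, the median of the 55 genes was -0.35 on the first treated array and -0.84 on the second, and 54 of the 55 were lower on the second treated array than on the first. The first spanned -0.74 to 0.02 and the second -1.36 to 0.09. Over all tested genes the medians were -0.0022 and -0.14. Of all 11026 tested genes, 5578 lay below their control mean on the first treated array and 7432 on the second. How many of them were lower on the second treated array than on the first was not counted. Treated replicate 2 also had a narrower spread of intensities over all probe sets, with an upper quartile of 106 against 115 to 118 on the other arrays. The mitotic genes are bright, at a median percentile of 88.4 among all genes by mean level. The part of that narrower spread in the difference was not tested. On treated replicate 1 alone, 53 of 55 genes lay below both controls, against 34.6% of all tested genes, and 5 were over 1.5-fold lower, against 0.299% of all genes. Between the controls the same genes moved both ways: control replicate 2 minus control replicate 1 had a median of -0.02. It was lower for 31 of 55, against 5840 of all 11026 tested genes. The gaps of the 55 mitotic genes ran from -0.39 for CDK1 to 0.22 for UBE2S. The median SD of a mitotic gene was 0.09 between the control arrays and 0.33 between the treated arrays, against 0.07 and 0.14 over all tested genes. For 54 of the 55 genes the average decrease was larger than the gap between the controls, the exception being CKAP2. The same share of all tested genes was not counted, so how far the mitotic genes exceed it is not known.

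**Figure D2:**
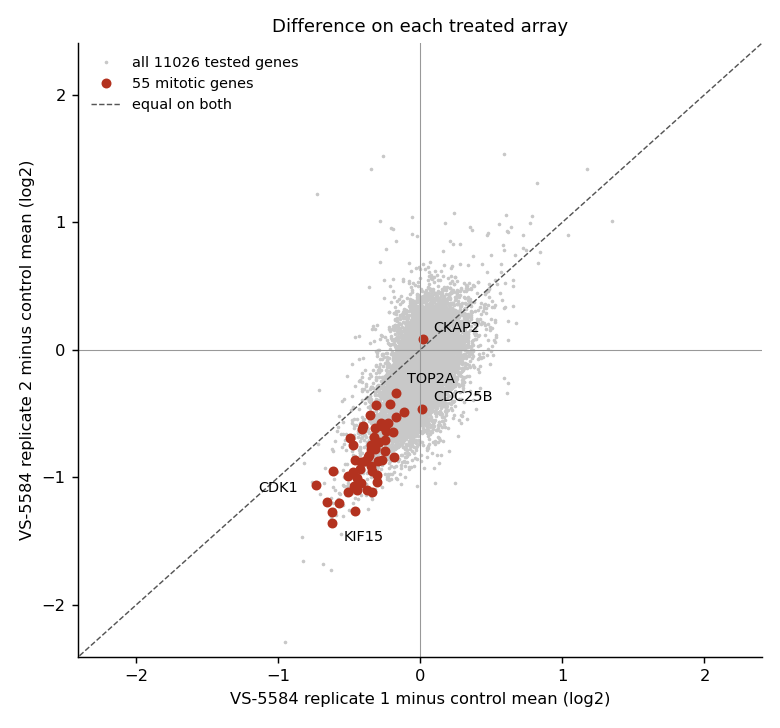
Log2 difference from the control mean on VS-5584 replicate 1 (horizontal) and replicate 2 (vertical) for the 55 mitotic genes (red) and all 11026 tested genes (grey), with a dashed line where both arrays are equal. The red points lie at the lower left, with medians of -0.35 and -0.84, apart from CKAP2 near the origin and CDC25B, which is lower on replicate 2 only.

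The pair at the centre of mitotic entry was lower, with unequal sizes. CDK1, the kinase of mitotic entry, had log2 intensities of 8.83 and 8.44 on the control arrays and 7.90 and 7.58 on the treated arrays. Both treated values lay below both controls, and the difference was -0.90 ± 0.17 (SE of the limma fit). CCNB1, the main mitotic cyclin, stood at 10.40 and 10.24 in control and at 10.01 and 9.55 in treated cells, a difference of -0.54 ± 0.17 with no overlap. CCNA2, the cyclin of S phase and early mitosis, stood at 9.74 and 9.65 in control and at 9.37 and 9.01 in treated cells, a difference of -0.50 ± 0.15 with no overlap. CCNB2, the second B cyclin, differed by -0.32 ± 0.15, and its treated arrays were also below both controls.

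The CDC25 phosphatases remove the inhibitory phosphates from CDK1. CDC25C differed by -0.51 ± 0.20, with -0.19 on the first treated array and -0.84 on the second. CDC25B stood at 7.24 and 7.41 in control and at 7.34 and 6.87 in treated cells. Its first treated array lay between the controls and its second below them, so the groups overlapped, and its difference of -0.22 ± 0.17 turned to 0.01 without treated replicate 2. The median of the 6 genes of this group was -0.51, and 5 of the 6 did not overlap between groups.

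All 7 other mitotic kinase genes (with the PLK1 activator gene BORA counted among them) were lower with no overlap, with a median of -0.66. MELK, a kinase abundant in dividing cells, stood at 9.60 and 9.56 in control and at 9.01 and 8.38 in treated cells. Its controls were close together and both treated arrays lay well below them, a difference of -0.89 ± 0.19. PLK1, the Polo kinase of spindle assembly and cytokinesis, stood at 9.13 and 9.31 in control and at 8.88 and 8.11 in treated cells, a difference of -0.73 ± 0.22 that was larger on treated replicate 2 (-1.11) than on treated replicate 1 (-0.34). AURKA, the Aurora kinase of the spindle poles, showed the smallest difference of this group. Its values were 9.97 and 9.73 in control and 9.62 and 9.28 in treated cells, a difference of -0.40 ± 0.16, with the first treated array only a little below the lower control. PLK4, which starts centriole duplication, and PBK, a kinase active in mitosis, differed by -0.72 and -0.66. BORA, which helps AURKA to activate PLK1, and NEK2, a centrosome kinase, differed by -0.58 and -0.43.

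The chromosomal passenger complex corrects the attachment of chromosomes to the spindle and later directs cytokinesis. Its 4 genes were lower with no overlap between groups and a median of -0.53. AURKB, its kinase, stood at 8.27 and 8.39 in control and at 8.04 and 7.60 in treated cells, a difference of -0.51 ± 0.16. BIRC5, which encodes survivin, stood at 9.75 and 9.83 in control and at 9.43 and 8.97 in treated cells, a difference of -0.59 ± 0.17 and the largest of the 4. INCENP, the scaffold that holds the complex together, stood at 6.92 and 6.98 in control and at 6.64 and 6.52 in treated cells. Its difference of -0.37 ± 0.13 was the smallest of the 4, and its treated arrays lay close together. CDCA8, which encodes borealin, differed by -0.55.

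The 5 genes of anaphase and its ubiquitin ligase were likewise lower with no overlap, with a median of -0.52. CDC20, which brings substrates to the anaphase-promoting complex, stood at 7.77 and 7.87 in control and at 7.52 and 6.78 in treated cells, a difference of -0.67 ± 0.21. UBE2S, an E2 enzyme that extends ubiquitin chains for the complex, stood at 7.28 and 7.50 in control and at 7.20 and 6.75 in treated cells, a difference of -0.42 ± 0.17. Its first treated value was just under the lower control. ESPL1, the separase that cuts cohesin, differed by -0.63, PTTG1, the securin that holds separase in check, by -0.52, and UBE2C, the E2 that starts the chains, by -0.50. The differences on the first and the second treated array were -0.41 and -0.62 for PTTG1 and -0.40 and -0.60 for UBE2C.

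Both transcription factor genes that activate this programme were lower. FOXM1 stood at 8.83 and 8.95 in control and at 8.51 and 7.79 in treated cells, a difference of -0.74 ± 0.21. MYBL2 stood at 7.99 and 8.15 in control and at 7.65 and 7.03 in treated cells, a difference of -0.73 ± 0.20. For both genes the groups did not overlap and the second treated array was the lower one.

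**Figure D3:**
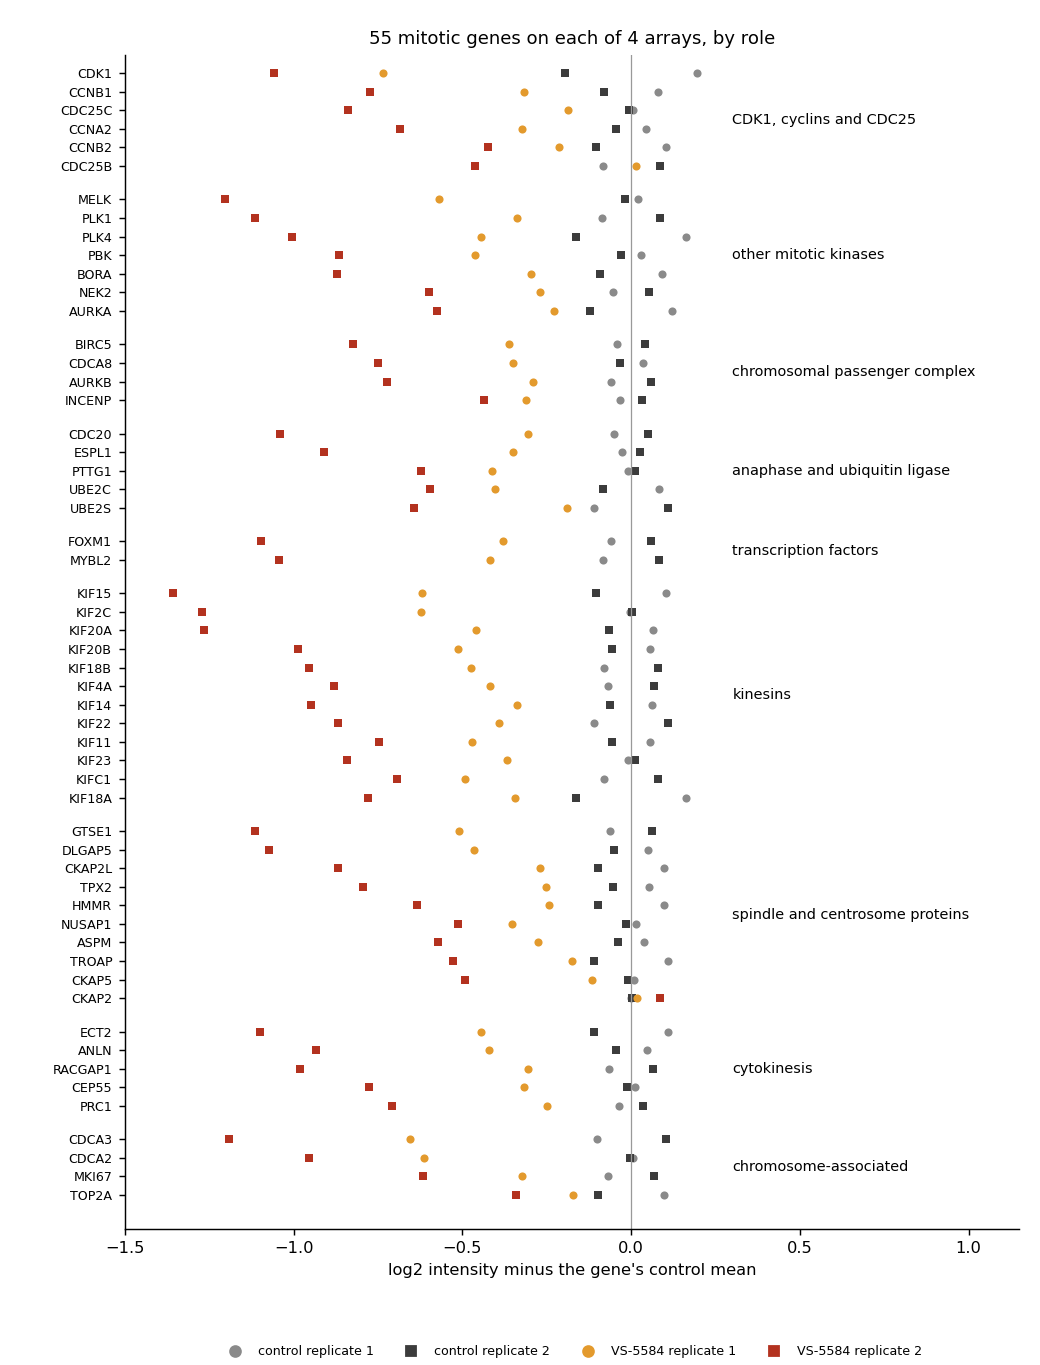
Log2 intensity of each of the 55 mitotic genes on each array, minus that gene's control mean; rows are genes grouped by role, grey symbols the 2 control arrays and coloured symbols the 2 VS-5584 arrays. In 53 rows both coloured symbols lie left of both grey ones; the exceptions are CDC25B and CKAP2.

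Kinesins walk along microtubules or take them apart, and the 12 mitotic kinesins act on the spindle, on chromosomes or in cytokinesis. All 12 were lower with no overlap and their median was -0.65. The largest decrease of the 55 genes was that of KIF15, which can take over spindle bipolarity from KIF11. It stood at 7.48 and 7.27 in control and at 6.75 and 6.02 in treated cells, a difference of -0.99 ± 0.22. KIF2C, which depolymerises microtubules at centromeres, stood at 7.76 and 7.77 in control and at 7.14 and 6.49 in treated cells. Its controls were nearly equal, while treated replicate 2 minus treated replicate 1 was -0.65, and its difference was -0.95 ± 0.20. KIF20A, a kinesin of the central spindle, stood at 8.80 and 8.67 in control and at 8.27 and 7.47 in treated cells, a difference of -0.86 ± 0.23.

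Of the 12 kinesins, KIF18A, which limits the swings of chromosomes at metaphase, differed least. It stood at 9.30 and 8.97 in control and at 8.79 and 8.36 in treated cells, a difference of -0.56 ± 0.18, and its controls were further apart than those of the other mitotic kinesins. The motor of spindle bipolarity KIF11 differed by -0.61 and the minus-end motor KIFC1 by -0.59. KIF20B and KIF23, both of cytokinesis, differed by -0.75 and -0.60. The chromosome-arm kinesins KIF4A and KIF22 differed by -0.65 and -0.63. KIF14, a kinesin of late mitosis, and KIF18B, which shortens astral microtubules, differed by -0.64 and -0.71.

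Kinesins that carry cargo outside mitosis and their light chains were read as a list beside them. Of 19 such genes, 13 were tested. Of these 13, 5 were lower and 1 higher with no overlap (29.2% and 14.7% of all tested genes were), 0 passed limma at an unadjusted p under 0.05, and their median was -0.10. KIF21A differed by -0.26 ± 0.13 and KIFAP3, a subunit of the KIF3 motor, by 0.23 ± 0.13. No test of the difference between these kinesins and the mitotic ones was made.

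The spindle and centrosome proteins had the widest range of the 9 role groups. Of 10 genes, 9 were lower with no overlap, and the median was -0.44. GTSE1, which regulates microtubule stability, stood at 7.41 and 7.54 in control and at 6.97 and 6.36 in treated cells, a difference of -0.81 ± 0.19. DLGAP5, which bundles the kinetochore fibres, stood at 9.17 and 9.07 in control and at 8.65 and 8.05 in treated cells, a difference of -0.77 ± 0.19. CKAP2L and TPX2, the activator of AURKA on the spindle, differed by -0.57 and -0.52. HMMR, NUSAP1 and ASPM, which bind spindle microtubules, differed by -0.44, -0.43 and -0.42. TROAP differed by -0.35 ± 0.16 and CKAP5, a microtubule polymerase, by -0.30 ± 0.15.

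CKAP2, which stabilises spindle microtubules, did not share the decrease. It stood at 10.96 and 10.97 in control and at 10.98 and 11.05 in treated cells. Both treated arrays lay just above both controls, with a difference of 0.05 ± 0.13 (limma unadjusted p = 0.699). Its difference was 0.0059 with median centring and 0.11 after cyclic loess.

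All 5 cytokinesis genes were lower with no overlap, with a median of -0.64. ECT2, the exchange factor that activates RhoA at the cleavage site, stood at 8.38 and 8.16 in control and at 7.82 and 7.17 in treated cells, a difference of -0.77 ± 0.20. PRC1, which bundles the microtubules of the central spindle, stood at 9.91 and 9.98 in control and at 9.69 and 9.23 in treated cells, a difference of -0.48 ± 0.17 and the smallest of the 5. ANLN, the scaffold of the contractile ring, differed by -0.68, RACGAP1, the partner of KIF23, by -0.64, and CEP55, which recruits the abscission machinery, by -0.55.

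Among the 4 chromosome-associated genes the large and small differences stood side by side. CDCA3, a factor needed for entry into mitosis, stood at 7.33 and 7.53 in control and at 6.78 and 6.24 in treated cells, a difference of -0.92 ± 0.18. CDCA2, which brings a phosphatase to chromosomes, stood at 8.48 and 8.47 in control and at 7.86 and 7.52 in treated cells, a difference of -0.78 ± 0.15 and the smallest p of the 55 (limma unadjusted p = 0.000488, adjusted p = 0.243). MKI67, the proliferation marker Ki-67 that coats mitotic chromosomes, stood at 10.02 and 10.15 in control and at 9.76 and 9.47 in treated cells, a difference of -0.47 ± 0.15. TOP2A, the topoisomerase that untangles sister chromatids, stood at 10.86 and 10.67 in control and at 10.59 and 10.42 in treated cells. Its difference of -0.26 ± 0.14 was among the smallest, and its controls were 0.20 apart.

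For 6 of the genes the arrays hold a further probe set that was not used above, and each was lower with drug. The second BIRC5 probe set differed by -0.48 where the one used differed by -0.59, the second UBE2S by -0.26 beside -0.42, and the second KIFC1 by -0.53 beside -0.59. The second KIF18B probe set differed by -0.32 beside -0.71. The second KIF22 probe set gave -0.63, as did the first, with values within 0.03 on each array, so it adds little. A probe set annotated to both KIF4A and KIF4B differed by -0.38 beside -0.65 for the KIF4A probe set used.

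The machinery around these genes was read in 4 further lists, beside which stand the same shares of all tested genes (29.2% lower and 14.7% higher with no overlap, 8.93% lower at an unadjusted p under 0.05). In the list of MuvB, DREAM and E2F regulators, 15 of 16 genes were tested, 9 were lower and 1 higher with no overlap, 6 were lower at an unadjusted p under 0.05, and the median was -0.26. LIN9, a MuvB subunit, differed by -0.70 ± 0.16 and E2F8, a repressive E2F of S phase, by -0.79 ± 0.19. The DREAM protein gene RBL2, which encodes p130, differed by 0.17 ± 0.16 and LIN37 by -0.02 ± 0.14. RBBP4 differed by 0.07 ± 0.13, higher with no overlap. Others of the list were lower with no overlap: the p107 gene RBL1 (-0.50 ± 0.21), E2F4 (-0.37 ± 0.18), LIN54 (-0.32 ± 0.14) and LIN52 (-0.26 ± 0.14). These last genes, like WEE1 below, were chosen for mention after their values were seen. Of 16 APC/C subunits and regulators, all tested, 6 were lower with no overlap and 5 were lower at an unadjusted p under 0.05, with a median of -0.15. FBXO5, the APC/C inhibitor EMI1, differed by -0.55 ± 0.15 and CDC27, a core subunit, by -0.47 ± 0.13.

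Among the CDK1 inhibitory kinases and the phosphatases that oppose CDK1, 14 of 15 genes were tested, 7 were lower and 1 higher with no overlap, 3 were lower at an unadjusted p under 0.05, and the median was -0.18. MASTL, the Greatwall kinase that shuts off the opposing phosphatase, differed by -0.71 ± 0.15 and PKMYT1, an inhibitory kinase of CDK1, by -0.41 ± 0.16, while the other inhibitory kinase, WEE1, differed by -0.14 ± 0.14. Of 16 tubulin and gamma-tubulin ring genes, 15 were tested, 11 were lower and 1 higher with no overlap, 8 were lower at an unadjusted p under 0.05, and the median was -0.31. TUBA1C, an alpha tubulin, differed by -0.55 ± 0.15 and TUBG1, the gamma tubulin that nucleates microtubules, by -0.60 ± 0.18. Tubulin genes are close copies of each other, so their signals may be shared. None of these genes passed limma's adjusted threshold.

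**Figure D4:**
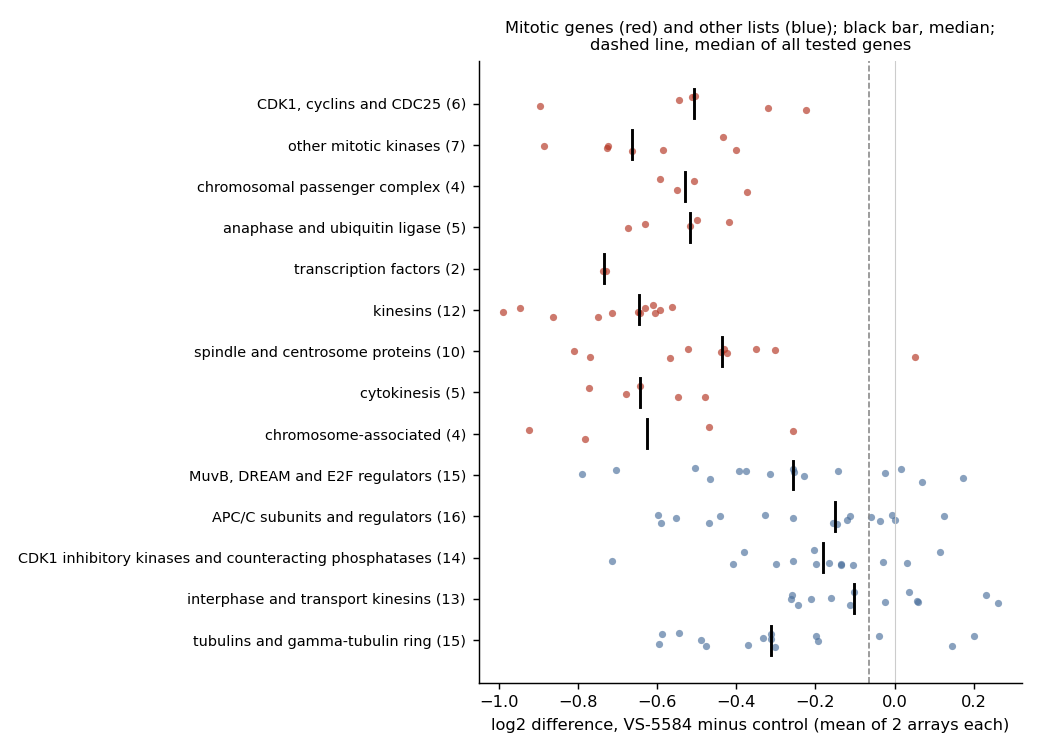
Log2 difference (VS-5584 minus control) of each mitotic gene by role (red) and of each tested gene in 5 further lists (blue), with the number of genes in brackets, a black bar at each median and a dashed line at the median of all tested genes (-0.06). Medians of the mitotic groups run from -0.73 to -0.44 and those of the other lists from -0.31 to -0.10.

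The labelled cell type was set against markers, whose probes differ in affinity, so that levels of different genes cannot be ranked. All 8 plasma cell markers (SDC1, TNFRSF17, CD38, PRDM1, XBP1, IRF4, MZB1 and JCHAIN) passed the filter on dim genes, with mean log2 intensities from 6.73 for CD38 to 11.74 for JCHAIN. Of the 8 markers of T cells and monocytes, CD3E and CD14 among them, 0 passed. Of all 20 markers of other cell types, 19 were named on the arrays and 4 passed, namely HBB, KRT19, COL1A1 and COL1A2. Detection above background could not be judged for any of them. The treated minus control differences of the 8 plasma cell markers ran from -0.14 to 0.29, and those of HBB and COL1A1 were -0.10 and 0.10.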

How the data were processed

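RNA of 4 OPM2 samples was measured on 1-colour arrays, 2 control and 2 VS-5584, from biotin-labelled whole-transcript cDNA per the labels' protocols. The authors deposited a linear intensity on each array for each of 28869 probe sets. The submitters' processing notes name RMA, without a version. The lowest value was 19.8 to 20.01 on each array, and an added constant, the background correction and the genome build of the probes are not given in the sources used here. A constant would make fold changes of dim genes too small. Detection above background could not be judged. The number of arrays limits the precision.

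Intensities were turned into log2 values and not normalized again. Of the probe sets, 19310 carried 1 gene in the supplied platform annotation, 1752 several and 7807 none listed. The brightest probe set stood for each of the 685 genes with several. The 40% of genes with the lowest mean (up to an intensity of about 48.9) were left out. Groups were taken from the titles and compared by a two-sided limma test (version 3.58.1 in R 4.3.3; eBayes with a constant prior, Benjamini-Hochberg over all tested genes, threshold 0.05), which was tested on simulated data. The SE is that of this model. Promoter windows are RefSeq's, matched by symbol.

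The 27 genes whose values are given on every array are the 10 largest differences, 10 fixed regulators, the largest and smallest of each role group and those whose groups overlap or are reversed. Of each further list the 2 genes with the smallest p are named. The members and lists were chosen with earlier results of these data known. The alternatives tried were a replicate block, median centring, cyclic loess, other filters, an intensity trend, an ordinary test, averaged probe sets, leaving out each array and, added after the data were seen, subtracting 16 from every intensity. Figures were drawn with matplotlib 3.10.9.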

Additional observations from a re-analysis of the deposited data

How the results depend on the processing

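Of 54 or 55 mitotic genes tested, 52 to 54 were below every control used on every treated array used, under every alternative run. The same share of all tested genes was not constant: it ran from 21.4% with no filter on dim genes to 60.1% without treated replicate 1. The median log2 difference of the mitotic genes ran from -0.64 to -0.48 with all 4 arrays. Leaving out single arrays, it ran from -0.84 to -0.35, the last without treated replicate 2, where 42 of the 55 differences shrank by over 1.5 times and that of CDC25B reversed to 0.013 (-0.46 without treated replicate 1). Limma's count of genes past the adjusted threshold, 0 in the main setting, was 16 after cyclic loess, 58 with 60% of dim genes left out, 80 with an intensity trend, 2 with 16 subtracted and 2 to 2636 leaving out single arrays. Of these, mitotic genes were 0, 9, 8, 0 and 0 to 53, in that order. Those counted as lower at an unadjusted p under 0.05 were 5 with the ordinary test (2.22% of all genes) and 37 to 54 leaving out single arrays (3.94% to 32.7% of all genes), where the lone array of a group is assumed to vary like the other group. With the replicate number as a block, limma called 432 genes, 40 of them mitotic. With 2 pairs the numbers cannot be shown to pair the samples. The control and treated replicate gaps correlated at r = 0.16 across all tested genes and at r = -0.10 across the 55 mitotic genes. The causes of these changes were not tested.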

Other observations

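The 5 genes outside the mitotic set whose profile over the 4 arrays lay nearest to its median profile were PDSS1, WDHD1, PYGL, TTC27 and CCNE1, by root mean squared distance of centred log2 values (0.02 to 0.03). CCNE1, the cyclin of S-phase entry, stood at 7.90 and 7.81 in control and at 7.56 and 7.05 in treated cells, a difference of -0.55 ± 0.18 (limma SE). Across the 55 mitotic genes, the control level and the difference correlated at r = 0.30, and across all tested genes at r = -0.31. The control level is itself subtracted in the difference, so noise in it alone pulls both correlations down. The points share the same 4 arrays, and genes are not independent replicates.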
